A study of Mus musculus with 2 samples.

Results

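Mir218-1 and Mir218-2 are the hairpins that give rise to the microRNA miR-218 in the mouse, and they lie inside the genes Slit2 and Slit3. They were found by their GENCODE M21 symbols and Ensembl gene identifiers (ENSMUSG00000065603.1 and ENSMUSG00000065583.1), and are 2 of the 2202 annotated hairpins counted. Short RNA was sequenced from whole heart tissue of 2 female B6CASTF1/J mice, the F1 hybrid of C57BL/6J and CAST/EiJ, aged 25 days. The mice are biological replicates 1 and 2 of a single group whose labels name no treatment, so the data allow a description of the loci and a comparison of the libraries, with no contrast between conditions. The labels number the animals separately but give them the same donor identifier, and the SDs below rest on reading them as separate animals. One free-text label attaches the unit months to the 25 that the age field gives in days.

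Slit proteins are secreted ligands of Robo receptors and steer growing axons, migrating cells and vessels. A microRNA gene in an intron is transcribed with its host when it shares the host's promoter, and the transcript is cut to a hairpin by Drosha and then by Dicer into a 5p and a 3p arm. miR-218 is best known from motor neurons, where it is abundant, and it has been described as a repressor of Robo receptors in the developing heart and in vessels.

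The sequences are given first because they set what the counts can separate. In the hairpins below, taken from RefSeq on GRCm38.p6, capitals mark the longest run of bases that both loci share, bases 25 to 46 in each.
Mir218-1: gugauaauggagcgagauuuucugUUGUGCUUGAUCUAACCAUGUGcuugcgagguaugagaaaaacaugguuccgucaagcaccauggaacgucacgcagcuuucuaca
Mir218-2: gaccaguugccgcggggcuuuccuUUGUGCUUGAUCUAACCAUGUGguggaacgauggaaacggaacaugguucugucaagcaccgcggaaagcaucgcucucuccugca
The shared run was 22 nt long and held the whole 5p arm. Outside the partner locus, the longest run that either hairpin shared with any of 1003 other RefSeq hairpins was 11 nt.

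The mature arms show the same division. Here capitals mark the seed, bases 2 to 8, the part of a microRNA that pairs most with its targets.
mmu-miR-218-5p, both loci: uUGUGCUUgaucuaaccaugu
mmu-miR-218-1-3p: aAACAUGGuuccgucaagcacc
mmu-miR-218-2-3p: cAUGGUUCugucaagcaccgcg
The 5p arm of 21 nt is identical at both loci. The annotated 3p arms start 3 nt apart, so their seeds differ, although 18 of the 19 bases where they overlap are the same and the remaining position is C12U (counted from 1 at the 5′ end of miR-218-1-3p, whose base comes first). In a global alignment, 76 of the 110 bases of Mir218-1 (69.1%) matched Mir218-2. The match was 21 of 21 bases in the 5p arm, 21 of 22 under the 3p arm of Mir218-1, 10 of 18 between the arms and 24 of 49 in the flanks. The predicted folds were alike, with 35 base pairs and a free energy of -36.60 kcal/mol for Mir218-1 and 34 base pairs and -42.30 kcal/mol for Mir218-2.

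**Figure D1:**
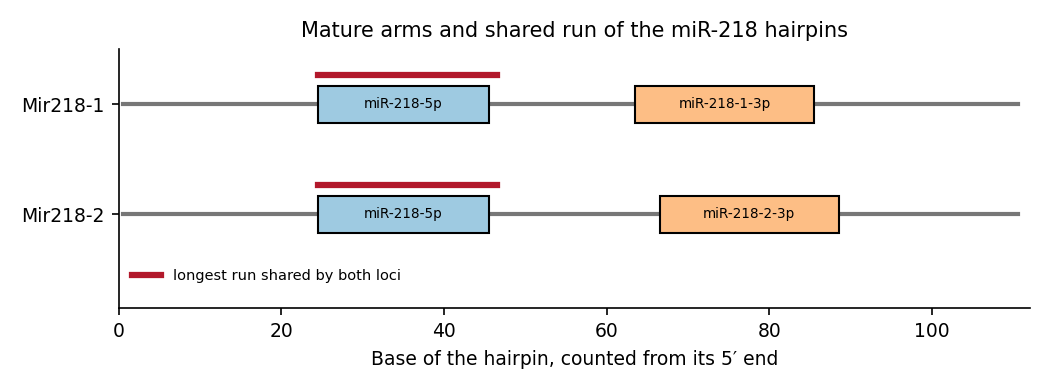
Map of both hairpins along their bases, counted from the 5′ end (x axis), with boxes for the annotated 5p and 3p arms and a red bar for the longest shared run. The 5p arm of 21 nt lies wholly inside the shared run of 22 nt at both loci, while the 3p arms lie outside it and start at bases 64 and 67.

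Few other microRNAs carry these seeds. The 5p seed UGUGCUU occurred in 1 arm outside the pair, miR-7002-3p (uUGUGCUUccccuugccag), and Mir7002 had 1 read in each library. The seed of miR-218-1-3p occurred in miR-496b (cAACAUGGccaauuccuuucau), and Mir496b had 0 reads in both libraries, which allows up to 1.46 CPM in replicate 1 and 1.13 CPM in replicate 2. The seed of miR-218-2-3p was found in 0 other arms of the table.

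Both hairpins sit in the same place of their host genes. Mir218-1 is at chr5:48223942-48224051 on the plus strand of mm10, in intron 14 of the principal Slit2 transcript (number 208 in GENCODE), which has 36 exons. Mir218-2 is at chr11:35616816-35616925 on the plus strand, in intron 14 of the principal Slit3 transcript (number 201), which also has 36 exons. Each hairpin is transcribed in the direction of its host, and 0 genes are annotated on the opposite strand there. Of the annotated transcripts that span each hairpin, 7 for Slit2 and 1 for Slit3, 0 had an exon over it. The introns differ in size: that of Slit2 is 4572 nt long with the hairpin 601 nt before the next exon, and that of Slit3 is 9571 nt long with the hairpin 5082 nt before it. The nearest other annotated hairpin is 2029 kb away from Mir218-1, while Mir103-1 lies 165 kb from Mir218-2.

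The counts are reads placed on a hairpin, and reads matching several places in the genome were tallied apart from them. The libraries held 5005996 and 6452546 reads, of which 2050498 (41.0%) and 2661090 (41.2%) were assigned to hairpins and 38.5% and 41.6% matched several places. Levels are given as CPM, a hairpin's reads divided by the library's hairpin reads and put on the customary scale, on which 1 read is worth 0.488 CPM in replicate 1 and 0.376 CPM in the deeper replicate 2. The cardiac muscle hairpins Mir208a, Mir208b and Mir499, within myosin genes, had 3322 and 15598, 391 and 297, and 5391 and 6167 reads in replicates 1 and 2. These markers of heart muscle were thus present. Other muscle hairpins, with 2 loci each, had fewer assigned reads. Mir1a-1 had 3 and 1 and Mir1a-2 had 94 and 31, while Mir133a-1 had 3 and 8 and Mir133a-2 had 8 and 7. In tissue, fewer cells that make a microRNA and less of it per cell cannot be told apart.

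A read of the 5p arm ending inside the shared run has the same bases at both loci. Of the 90 windows of 21 nt in a hairpin, 2 were shared with the other locus; of the 89 windows of 22 nt, 1 was; and of the 88 windows of 23 nt, 0 were. With reads matching several places tallied apart, such a read would be missing from both loci, so the values below do not give the amount of mature miR-218-5p. The alignment settings that decide this are not given in the sources used here. Arms are not separated in the deposited counts, so which arm the counted reads came from was not tested. Nor was the part of the reads matching several places that belongs to miR-218.

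Both loci gave few assigned reads. Mir218-2, in Slit3, had 20 reads in replicate 1 (exact 95% Poisson interval 12.2 to 30.9) and 27 in replicate 2 (17.8 to 39.3). These are 9.75 CPM and 10.1 CPM, a mean of 9.95 ± 0.278 CPM (SD, n = 2), and the libraries are level within counting error. Mir218-1, in Slit2, had 11 reads in replicate 1 (5.49 to 19.7) and 1 in replicate 2 (0.0253 to 5.57). These are 5.36 CPM and 0.376 CPM, a mean of 2.87 ± 3.53 CPM (SD, n = 2), with an SD larger than the mean. The presence of Mir218-1 in replicate 2 rests on a single read, fewer than the 3 that a count of 0 allows, and is uncertain. The reads carry no molecular identifiers in the deposited tables, so amplified copies count as separate reads and the intervals hold counting error alone.

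Of the pair, Mir218-2 alone had at least 10 reads in both libraries, as did 288 of all 2202 hairpins. By mean CPM it ranked 258 and Mir218-1 ranked 328, against a median of 12.2 CPM over the 481 hairpins with at least 1 read in each library. All reads of both loci were on the strand of the hairpin: the column counted without regard to strand gave the same 4 values, and the opposite strand had 0 reads at both loci in both libraries. At 0 reads that column allows up to 3.

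**Figure D2:**
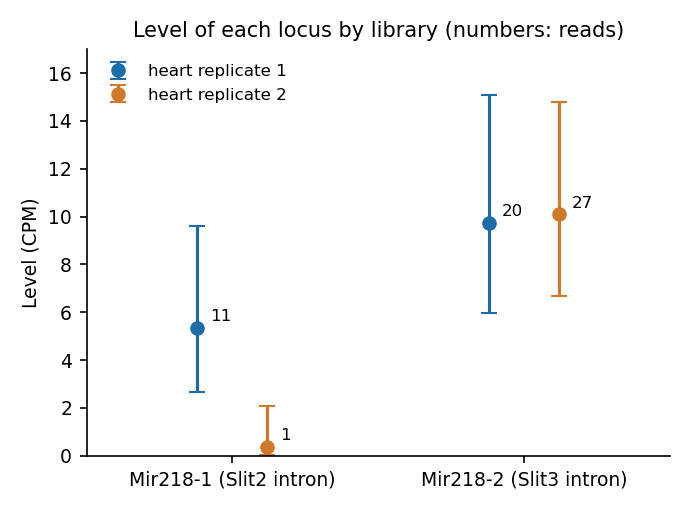
Level of each locus in CPM (y axis) in heart replicates 1 and 2, with the number of reads beside each point and bars for exact 95% Poisson intervals. Mir218-2 stood at 9.75 and 10.1 CPM, and Mir218-1 at 5.36 and 0.376 CPM with intervals that do not overlap.

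Summed over both loci, the reads were 31 in replicate 1 (21.1 to 44.0) and 28 in replicate 2 (18.6 to 40.5), or 15.1 and 10.5 CPM, with a mean of 12.8 ± 3.25 CPM (SD, n = 2). Mir218-2 held 64.5% of them in replicate 1 (exact binomial 95% interval 45.4 to 80.8). In replicate 2 it held 96.4% (81.7 to 99.9), and the mean was 80.5% ± 22.6 (SD, n = 2). Mir218-2 led in both libraries. In replicate 1 the interval includes an equal split, so the order of the loci there was within counting error, while in replicate 2 it does not. Without replicate 2 the share of Mir218-2 is 64.5%, and without replicate 1 it is 96.4%.

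To compare the libraries, each hairpin's reads were set against the TMM-scaled library sizes in an exact binomial test (two-sided), with Benjamini-Hochberg adjustment over all 326 hairpins with at least 10 reads in at least 1 library. The test compares the reads of these libraries and says nothing of conditions. It called 62.6% of all tested hairpins (adjusted p under 0.05), 36.2% higher and 26.4% lower in replicate 2. Of the 2 miR-218 loci, 1 was called, Mir218-1 as lower. Mir218-1 met the minimum of 10 reads through replicate 1 alone, the library where it was higher, so the filter favoured that direction. Among the 116 tested hairpins with 10 to 100 reads in all, a range chosen after the values were seen, 32.8% were called, 22 higher and 16 lower. Hairpins under 10 reads in both libraries were not tested, so the lowest sums in this range favour hairpins with uneven counts.

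Mir218-1 was 12.2-fold lower in replicate 2, with an exact interval of 1.77 to 524 that reflects the single read there. Its log2 ratio of replicate 2 over replicate 1, on CPM plus 1, was -2.08 (adjusted exact binomial p = 0.00457). The ratios of 5.83% of tested hairpins were at least as large in either direction. Mir218-2 had a ratio of 1.22 (interval 0.659 to 2.29), a log2 ratio of 0.26 and an adjusted exact binomial p of 0.645, which does not show that its levels were equal. That interval leaves room for a difference of up to 2.29-fold. Whether the loci differed from each other in this ratio was not tested. For both loci summed the ratio was 0.816 (interval 0.472 to 1.41).

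The median log2 ratio of all tested hairpins was 0.09 with TMM, -0.14 with total count and 0.01 with DESeq2 size factors. Relative to these medians, Mir218-1 stood at -2.17, -2.07 and -2.14 and Mir218-2 at 0.17, 0.19 and 0.18. Calls over all hairpins were 118 higher and 86 lower with TMM, 76 and 117 with total count, and 99 and 91 with DESeq2 size factors.

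**Figure D3:**
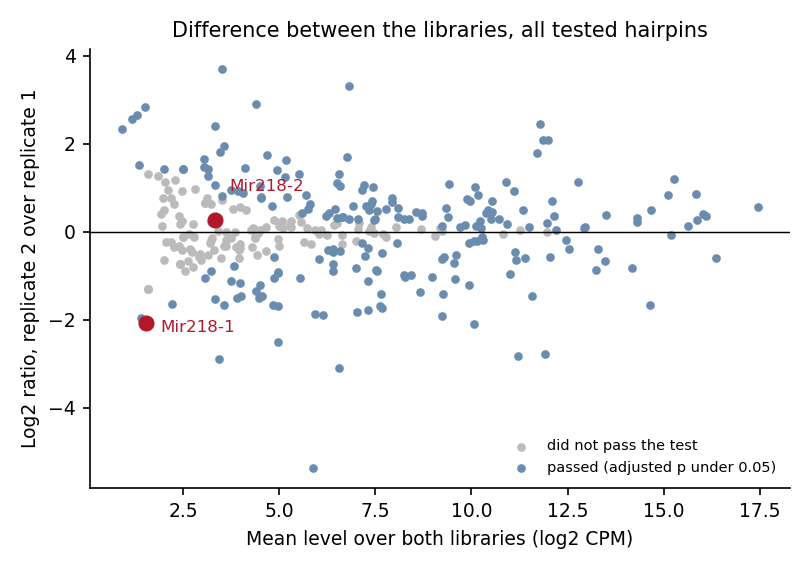
Log2 ratio of the TMM-scaled levels, replicate 2 over 1 with 1 CPM added (y axis), against mean level in log2 CPM (x axis) for the 326 tested hairpins, blue where the exact binomial test was passed. Mir218-1 lies at -2.08 and Mir218-2 at 0.26, both at the low end of the levels.

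Hairpins at the level of Mir218-2 varied in how far the libraries lay apart. The nearest by mean CPM over the 2 libraries were Mir302a (6 and 46 reads in replicates 1 and 2) and Mir511 (14 and 35) above it, and Mir190b (25 and 20) and Mir760 (22 and 22) below it. Their levels of 10.1, 9.99, 9.85 and 9.50 CPM lie within 0.07 of Mir218-2 on the log2 scale. Mir302a and Mir511 were called higher in replicate 2 (log2 ratios 2.41 and 1.06, adjusted exact binomial p = 1.88e-07 and 0.0167, the latter 0.0697 with total count), and Mir190b and Mir760 were not called (-0.42 and -0.13). Mir302a met the minimum of 10 reads through replicate 2 alone, the library where it was higher, so the filter favoured that direction. Around Mir218-1 stood Mir412 (3 and 12), Mir1903 (8 and 5), Mir7658 (7 and 6) and Mir7689 (6 and 7), of which Mir412 was tested and not called (adjusted exact binomial p = 0.0607). Mir412 met the minimum through replicate 2 alone. The others had under 10 reads in both libraries and could not be tested, so the test gives no comparison for Mir218-1 at its level.

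Other microRNAs also have their copies in introns of related host genes. For miR-26a, in the phosphatase genes Ctdspl and Ctdsp2, Mir26a-1 had 10 and 99 reads in replicates 1 and 2 and Mir26a-2 had 136 and 71. Mir26a-1 was higher in replicate 2 (log2 ratio 2.91, adjusted exact binomial p = 3.84e-17) and Mir26a-2 lower (-1.06, adjusted p = 3.84e-07), so the leading locus switched. For miR-103, in the pantothenate kinase genes Pank3 and Pank2, Mir103-1 had 4 and 5 reads and Mir103-2 had 19 and 11, and the tested Mir103-2 was not called (-0.80, adjusted exact binomial p = 0.144). For miR-128, in R3hdm1 and Arpp21, Mir128-1 had 360 and 487 reads and was higher (0.29, adjusted exact binomial p = 0.00740), a call lost with total count (0.06, adjusted p = 0.617) and with DESeq2 size factors (0.21, adjusted p = 0.0602), and Mir128-2 had 22 and 20 and was not called. Of these 6 hairpins, 5 were tested and 3 called, near the 62.6% called over all tested, 2 higher and 1 lower, with a median log2 ratio of -0.25 against 0.09 over all tested.

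A wider list held 48 hairpins of microRNAs with 2 numbered loci, of which 46 matched the annotation and Mir7a-1 and Mir7a-2 did not. By summed level the miR-218 pair ranked 17 of 24 pairs. These levels hold only reads assigned to a locus, so the rank does not order the amounts of the mature microRNAs. On the same measure Mir1a, with 97 and 32 reads in replicates 1 and 2, ranked 13. Mir133a, with 11 and 15 reads, ranked 21. Both hairpin sequences were at hand for 20 of the other 23 pairs, all but Mir1a, Mir125b and Mir133a. Their longest shared runs were 22 to 28 nt, with 5 pairs at 22 nt as for miR-218 and 15 above. In 18 of the 20 pairs exactly 1 listed mature arm was identical at both loci, as in miR-218, and the summed levels of these 18 spanned 0.676 to 4860 CPM with a median of 128 CPM. The highest single hairpins of the list were Mirlet7f-2 (10248 and 11676 reads), Mir92-1 (4070 and 4380) and Mirlet7c-2 (2943 and 1405).

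The division between loci moved between libraries by a wider margin in miR-218 than in 18 of the 19 other pairs with at least 10 reads in each library. Over these 19, the share of the locus numbered 2 moved by a median of 4.00 percentage points between libraries. It moved by 31.9 points for miR-218, and by more in 1 pair, Mir26a with 51.4 points. Of the pairs under the minimum, Mir129 (8 and 29 reads) moved by 34.5 points, and Mir199a, Mir196a and Mir19b by 0. The same locus led in both libraries in 14 of the 19, as it did for miR-218. Most of these pairs had more reads than the 31 and 28 of miR-218, and counting error widens such moves at low counts. The difference between miR-218 and the other pairs was not tested. Of the 35 hairpins of the list that were tested, 22 were called, a share near the 62.6% of all tested hairpins, 8 higher and 14 lower. Their median log2 ratio was -0.49, against 0.09 over all tested.

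**Figure D4:**
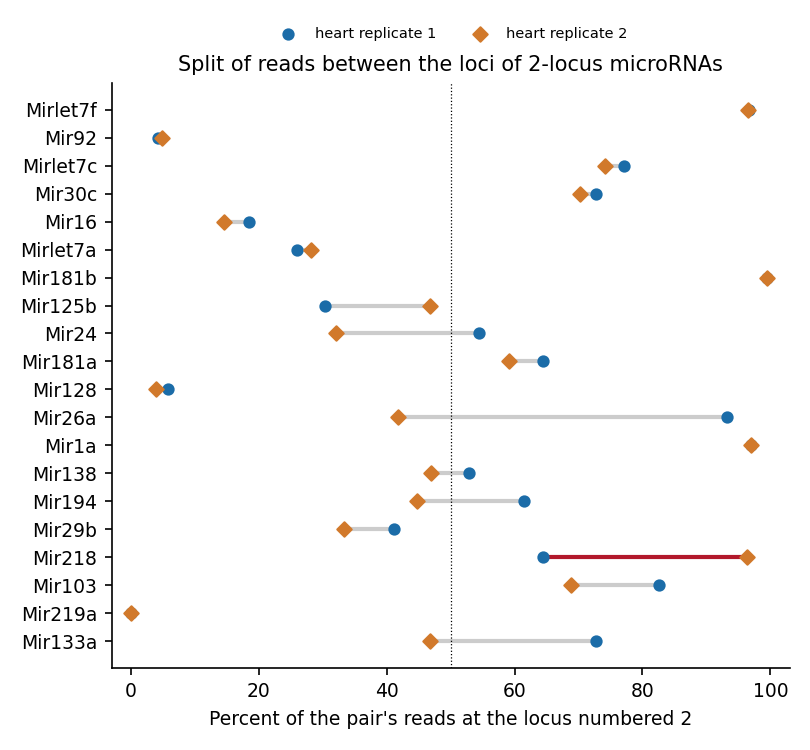
Percent of a pair's reads at the locus numbered 2 (x axis) in heart replicates 1 and 2 for 20 microRNAs with 2 loci and at least 10 reads in each library, ordered by summed level with the highest at the top. The red line joins 64.5% and 96.4% for miR-218, and Mir26a is the pair with the wider gap.

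Neuronal microRNAs were compared because miR-218 is known from motor neurons. Of 14 hairpins of neuronal microRNAs, 6 had 0 reads in both libraries, namely Mir124a-1, Mir124a-2, Mir124a-3, Mir9-1, Mir9-2 and Mir219a-2, and 6 had at least 10 reads in both. The highest was Mir128-1, followed by Mir137 (23 and 51 reads in replicates 1 and 2) and Mir138-2 (36 and 31). The list held 0.0242% and 0.0240% of hairpin reads in replicates 1 and 2. Most of this was 1 hairpin, as Mir128-1 had 360 and 487 of the list's 497 and 639 reads. Of the 6 tested, 2 were called, against 62.6% of all tested hairpins and 32.8% of those with 10 to 100 reads, both higher in replicate 2, Mir128-1 and Mir137 (log2 ratio 0.94, adjusted exact binomial p = 0.00941), with a median log2 ratio of -0.14. With total count neither call held (adjusted p = 0.617 and 0.0576). Of the list, 12 hairpins carry a locus number and can share reads with a copy, as the miR-218 loci do, and the part of this in their zeros was not tested.

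Of the endothelial hairpins, Mir126a had 221621 and 162194 reads in replicates 1 and 2, and Mir126b had 1 and 0 and was not tested. The smooth muscle hairpins Mir143 and Mir145a had 57656 and 113109, and 2534 and 15387. Mir126a was lower in replicate 2 (log2 ratio -0.60), as Mir218-1 was, and Mir143 and Mir145a were higher (0.83 and 2.46). These held with each scaling tried, and their part in the difference of Mir218-1 was not tested.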

How the data were processed

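The deposited tables hold raw counts, whole reads per annotated hairpin, in separate columns for either strand, the sense strand and the antisense strand. Per the file headers they were made on mm10 with GENCODE M21; aligner, counter and settings are not given in the sources used here. Each column of a table sums to the same total, so reads listed as unmapped, matching several places or in no hairpin were counted outside the hairpins, and they were left out of library totals.

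The sense column was used, since its hairpin sum exceeds that of the antisense column. CPM used hairpin sums. TMM factors came from edgeR 4.0.16 in R 4.3.3 over hairpins reaching 10 counts in either library, with a pseudocount of 1 CPM for log2 ratios, and p-values and intervals from SciPy 1.17.1. The test was tried on simulated data. Hairpins were aligned with Biopython 1.88 and folded with RNAfold 2.7.2. Sequences are RefSeq's, on GRCm38.p6, and matched both members by symbol and position. Named hairpins were the members, their 2 neighbours on each side in mean CPM, hairpins sharing a seed, all of the related-host and cardiac muscle lists, and the 3 highest of the 2-locus and neuronal lists; others were chosen after their values were seen, the endothelial and smooth muscle markers being fixed lists. The members and lists were chosen with earlier results of these data known. Alternatives were total-count and DESeq2 1.42.0 scaling, the unstranded column, other minimums, pseudocounts and denominators, leaving out the 10 highest hairpins and leaving out each replicate.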

Additional observations from a re-analysis of the deposited data

Results flagged for a closer look

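Reads matching several places in the genome lie outside the hairpin counts and numbered 1925044 in replicate 1 and 2686901 in replicate 2. They were marked because they exceed the 3 reads that a count of 0 allows, which does not make them unusual. For each read assigned to the miR-218 loci there were 62098 and 95961 of them. How many are miR-218-5p was not tested.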

How the results depend on the processing

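The direction and the call of both loci held in all 7 alternatives that gave a value: Mir218-1 ranged from -2.95 to -0.88 (adjusted exact binomial p 0.00166 to 0.00787), the lesser end with a pseudocount of 5 CPM, and Mir218-2 from 0.05 to 0.27 (0.645 to 1.00). The pseudocount does not enter the exact binomial test, so changing it could not alter a call. The unstranded column held the same reads for both loci, so it changed only their scaling and the adjustment. With at least 50 counts neither locus could be tested. The number of called hairpins was 165 to 193 in the 4 alternatives, fewer in each than the 204 of the main setting. The 165 came with at least 50 counts, where fewer hairpins were tested. Levels follow the denominator: over all reads, Mir218-1, Mir218-2 and the pair had 1.18, 4.09 and 5.27 CPM; without the 10 highest hairpins, Mir218-1, Mir218-2 and the pair had 8.37, 31.9 and 40.3 CPM; in the unstranded column, where hairpin sums are smaller, Mir218-2 had 14.1 and the pair 18.2 CPM. Leaving out each replicate gave 0.376 to 5.36 CPM for Mir218-1, 9.75 to 10.1 for Mir218-2, 10.5 to 15.1 for the pair and 64.5% to 96.4% for the share of Mir218-2. Some of the other named hairpins were rescaled after seeing the data. Among those, Mir128-1, Mir511 and Mir137 lost their call with total count, and Mir128-1 also with DESeq2 size factors. The other rescaled hairpins kept call and direction. Mir208a, Mir208b, Mir499, Mir1a-2, Mirlet7f-2, Mir92-1, Mirlet7c-2 and Mir138-2 were not rescaled. No paired analysis was possible because there is only 1 group. The level of Mir218-1 in replicate 2 rests on 1 read.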
